A study of Mus musculus with 4 samples.

Results

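The 8 genes described here are the D cyclins Ccnd1, Ccnd2 and Ccnd3, their kinase partners Cdk4 and Cdk6, and the Cdk inhibitors Cdkn1a, Cdkn1b and Cdkn2c. They were picked by symbol, and all 8 were found among the 31053 genes of the count matrices and had transcripts in both libraries. The samples were whole kidneys of newborn mice, dissociated to single cells, whose transcripts were counted from their 3′ ends in droplets. The control library came from a mouse with genotype Six2Cre. The other, called the floxed library, came from a Six2CreTet2/3f/f mouse, in which the loxP-flanked alleles are those of Tet2 and Tet3, enzymes that oxidise 5-methylcytosine in DNA. Both mice carried the Cre recombinase under Six2, which is active in nephron progenitors, so that recombined alleles pass to the nephron epithelium but stroma, vessels and blood cells arise elsewhere. Each genotype had 1 library. No difference between genotypes therefore has a replicate check, no p-values are given, and every interval covers counting error only.

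D cyclins carry growth signals into the cell cycle. They bind Cdk4 or Cdk6, and the complexes phosphorylate the retinoblastoma protein, which then releases E2F factors that switch on genes for DNA synthesis. Cdkn2c, an inhibitor of the Ink4 family also called p18, binds Cdk4 and Cdk6 alone, whereas Cdkn1a (p21) and Cdkn1b (p27) of the Cip/Kip family act on several cyclin-kinase complexes, and Cdkn1a is a classic target of p53. In the newborn mouse kidney Six2-positive progenitors still renew themselves while others commit, form vesicles that divide, and leave the cycle as podocytes and tubule cells mature.

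Filtering left 19493 cells of the control library (median 5991 UMIs, unique molecular identifiers that each stand for 1 captured RNA molecule) and 14393 of the floxed library (median 4776). Of the barcodes in the matrices 174 occurred in both, and 90 of the kept ones. Cells fell into 29 clusters, 25 of which were named as 13 classes from marker genes. The names carry "-like" because they were rebuilt from expression. The 8 genes, the listed pathway genes and the listed S phase and G2/M genes had no part in the clustering. Cell cycle genes outside those lists could take part, and clusters still differed in their share of dividing cells (given below). The progenitor-like class held 2733 control and 1729 floxed cells, the committed nephron-like class 1091 and 670, and the stroma-like class 6157 and 4673. Between 4 of 7 progenitor markers and 7 of 7 podocyte or tubule markers were at their highest in the class they name. The targeted genes checked the labels only in part: in progenitor-like cells Tet3 stood at 90.2 CPM in the control and 42.4 in the floxed library and Tet2 at 28.8 and 23.5 (CPM, UMIs scaled to a fixed class total), and the labels do not place the loxP sites relative to the counted 3′ ends. Summed dissociation stress genes stood at 3731 CPM in control and 1883 in floxed progenitor-like cells and at 3809 and 1852 in stroma-like cells, against 2128 and 1822 in committed nephron-like cells. The part of this handling signal in the ratios between libraries was not tested.

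Ccnd1, which lies on chromosome 7 (GRCm38, 144929931 to 144939831) and encodes cyclin D1, marked the step from progenitor to committed nephron. Progenitor-like cells held 89.7 CPM in the control and 129 in the floxed library, and committed nephron-like cells held 1396 and 1437 CPM. The step was 15.6-fold in the control (95% interval 14.9 to 16.3) and 11.1-fold in the floxed library (10.6 to 11.8). In both libraries the committed nephron-like class was the highest of the 13, ahead of the class of loop of Henle and distal tubule (loop-like) at 424 and 600 CPM and the endothelium-like class at 249 and 347. Podocyte-like cells stood at 194 and 259 CPM, and proximal tubule-like cells were lowest at 78.5 and 87.1, so that the nephron's own branches lay at both ends of the order. Most of the classes in between were close: stroma-like cells held 133 and 156 CPM, cells of ureteric bud and collecting duct type (ureteric-like) 142 and 118, macrophage-like cells 129 and 207, erythroid-like cells 131 and 207, cells of mural and renin type (mural-like) 102 and 177, lymphoid-like cells 196 and 190, and neutrophil-like cells 87.1 and 136. In the control library progenitor-like cells could not be told apart from the mural-like and neutrophil-like classes next to them by counting error.

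The share of cells with a Ccnd1 UMI gave the same step. After each cell was thinned to 2000 UMIs, 78.2% of control and 85.0% of floxed committed nephron-like cells had at least 1 UMI (unthinned 96.2% and 96.7%), compared with 13.6% and 16.4% of progenitor-like cells (unthinned 39.7% and 38.0%). Erythroid-like cells, a blood lineage class, gave 14.1% and 21.3% at median depths of 4621 and 4099 UMIs, against medians of 7769 and 6349 UMIs in progenitor-like cells. The progenitor-like share did not exceed that of the erythroid-like cells, so the step is a ratio to a level that may be background. Proximal tubule-like cells had lower shares than either, at 11.5% and 13.9%, so the erythroid-like share is not a floor. Whether the progenitor-like share is background was not tested. Clusters within a class differed too. In the loop-like class cluster 24 held 517 and 729 CPM and cluster 1 held 205 and 164. In the ureteric-like class cluster 3 held 244 and 210 CPM and cluster 2 held 61.5 and 58.2. Unnamed cluster 8, in which markers of several classes were mixed, stood at 248 and 376 CPM.

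**Figure D1:**
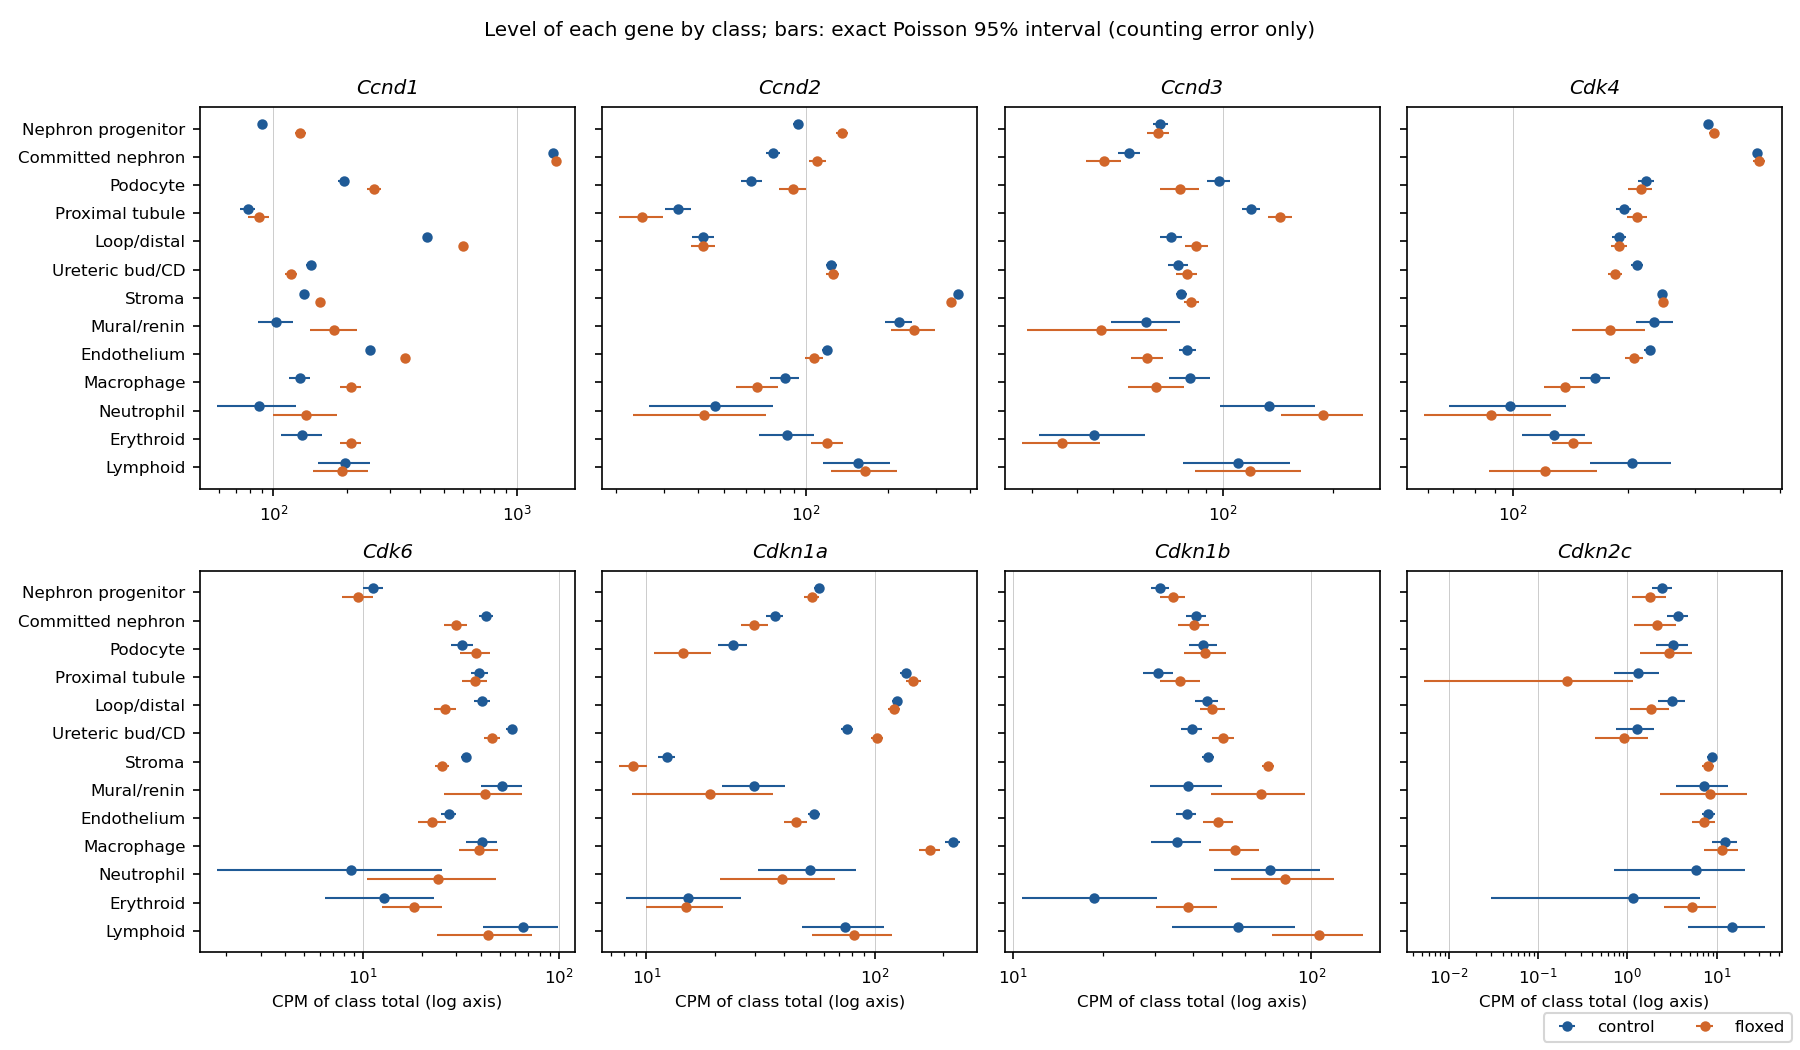
Level of each of the 8 genes (CPM of the class total, log axis) in the 13 classes, with 1 point per library and exact Poisson 95% intervals for counting error. Ccnd1 in committed nephron-like cells lies at 1396 and 1437 CPM, apart from every other class, while Cdkn2c stays under 25 CPM throughout (its floxed neutrophil-like and lymphoid-like values are 0 and are not drawn).

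Ccnd2, on chromosome 6 (127125162 to 127152188), encodes cyclin D2 and was highest outside the nephron. Stroma-like cells held 364 CPM in the control and 342 in the floxed library, followed by mural-like cells at 219 and 249. Progenitor-like cells held 93.5 and 136 CPM, so stroma stood 3.89-fold higher than progenitors in the control (3.73 to 4.06) and 2.51-fold higher in the floxed library (2.38 to 2.65). Along the nephron the class levels went down from progenitors to tubules. Committed nephron-like cells held 75.6 and 110 CPM and podocyte-like cells 63.0 and 89.3. Loop-like cells held 41.9 and 42.0 CPM, and proximal tubule-like cells 33.8 and 24.9. The first step down rests largely on progenitor-like cluster 12, of 196 control and 176 floxed cells, so no fall is claimed at that step. This cluster gave 646 of 2479 control and 433 of 1660 floxed Ccnd2 UMIs of the progenitor-like class. Its summed stroma markers (1270 and 1181 CPM) exceeded its progenitor markers (440 and 614 CPM). Ureteric-like cells, the branching epithelium that does not come from Six2-positive progenitors, stood at 124 and 125 CPM. Stroma-like clusters ranged widely, from 168 and 160 CPM in cluster 4 to 557 and 477 in cluster 11. Thinned to 2000 UMIs, 43.1% and 41.2% of stroma-like cells had a Ccnd2 UMI (unthinned 69.8% and 64.0%), compared with 13.7% and 18.4% of progenitor-like cells (unthinned 42.6% and 44.0%) and 8.05% and 14.7% of erythroid-like cells. Median depths of stroma-like cells were 5596 and 4409 UMIs.

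Ccnd3, on chromosome 17 (47505051 to 47599689), encodes cyclin D3 and had the narrowest range of the D cyclins, 3.00-fold between the highest and the lowest class in the control library. Neutrophil-like cells held 134 and 187 CPM and proximal tubule-like cells 119 and 143, at the top of the order in both libraries. Progenitor-like cells held 67.4 and 66.5 CPM, committed nephron-like cells 55.4 and 47.1, podocyte-like cells 97.4 and 76.2, and erythroid-like cells were lowest at 44.5 and 36.3. Proximal tubule-like cells exceeded progenitor-like cells 1.77-fold in the control (1.64 to 1.91) and 2.15-fold in the floxed library (1.94 to 2.38). Most neighbours in between overlapped within counting error.

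The make-up of the D cyclin UMIs therefore changed from class to class. Capture differs between genes, so shares are compared across classes only. Ccnd1 gave 35.8% of D cyclin UMIs in control and 38.9% in floxed progenitor-like cells, 91.4% and 90.1% in committed nephron-like cells, 78.9% and 82.6% in loop-like cells, and 33.9% and 34.2% in proximal tubule-like cells. Ccnd2 gave 63.4% and 59.0% in stroma-like cells but 4.95% and 6.90% in committed nephron-like cells. Ccnd3 gave 51.5% and 56.1% in proximal tubule-like cells, against 26.9% and 20.1% in progenitor-like cells.

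**Figure D2:**
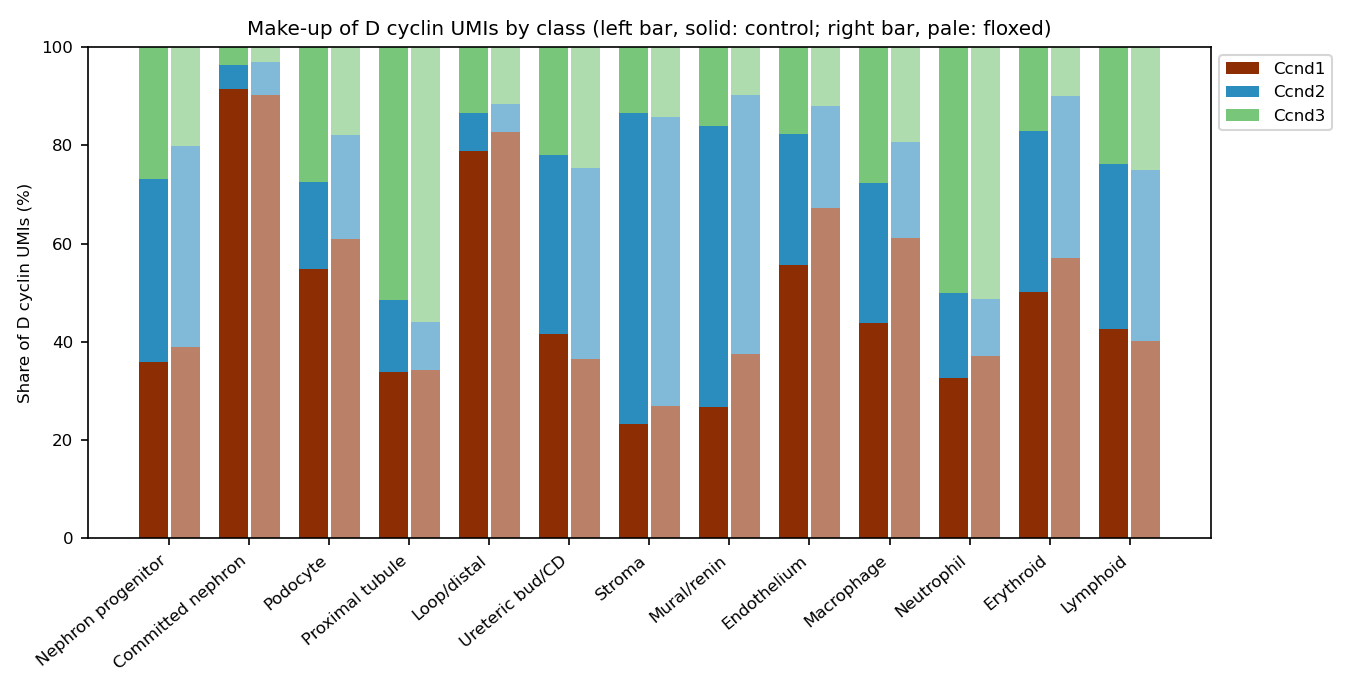
Share of D cyclin UMIs (%) from Ccnd1, Ccnd2 and Ccnd3 in each class, with the control library as the solid left bar and the floxed library as the pale right bar. Ccnd1 fills 91.4% and 90.1% of the committed nephron-like bars, Ccnd2 63.4% and 59.0% of the stroma-like bars and Ccnd3 51.5% and 56.1% of the proximal tubule-like bars.

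Cdk4, on chromosome 10 (127063535 to 127067288), encodes a kinase that pairs with the D cyclins. The 250 bases upstream of its start are shown because E boxes, the letters bound by Myc and related factors, recur in them. The window is chr10:127063285-127063534 on the plus strand (RefSeq, GRCm38.p6), with the E box letters CACGTG in capitals.
Cdk4: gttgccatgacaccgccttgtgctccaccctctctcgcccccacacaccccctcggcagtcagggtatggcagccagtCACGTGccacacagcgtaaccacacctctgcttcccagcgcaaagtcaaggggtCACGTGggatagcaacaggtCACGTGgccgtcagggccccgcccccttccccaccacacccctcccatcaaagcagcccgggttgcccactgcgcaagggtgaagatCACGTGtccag
The letters occurred 4 times, with their first base 172, 118, 98 and 11 bases upstream of the start, and 6.02% of 32851 RefSeq windows of this length held them at least once on either strand. A match describes letters and is not evidence of binding.

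Committed nephron-like cells held the highest level of Cdk4 in both libraries (436 and 442 CPM) and progenitor-like cells the next (325 and 337 CPM). The ratio between them was 1.34 in the control (1.30 to 1.38) and 1.31 in the floxed library (1.249 to 1.37). Stroma-like cells followed at 245 and 247 CPM, podocyte-like cells held 223 and 216, proximal tubule-like cells 195 and 212 and loop-like cells 190 in both libraries. Neutrophil-like cells were lowest at 98.7 and 87.7 CPM. The nephron's early stages thus led the order of Cdk4, and its differentiated stages sat among the other classes. Thinned to 2000 UMIs, 46.7% and 47.8% of progenitor-like cells had a Cdk4 UMI, compared with 18.8% and 22.7% of erythroid-like cells.

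Cdk6, on chromosome 5 (3341004 to 3531008), encodes the second kinase that binds D cyclins. Its order was close to the reverse at the progenitor stage: progenitor-like cells held 11.3 and 9.42 CPM, and committed nephron-like cells held 42.5 and 29.8, a step of 3.77-fold in the control (3.28 to 4.34) and 3.16-fold in the floxed library (2.51 to 4.003). Ureteric-like cells stood at 57.4 and 45.7 CPM, lymphoid-like cells at 65.5 and 43.7, proximal tubule-like cells at 39.4 and 37.2 and podocyte-like cells at 32.1 and 37.7. In progenitor-like cells 2.00% and 1.42% of thinned cells had a Cdk6 UMI, no more than the 2.01% and 3.47% of erythroid-like cells. These shares may be background, which was not tested.

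Cdkn1a lies on chromosome 17 (29090979 to 29100722). The window upstream of its first annotated start is shown because it holds a pair of half-site cores of the p53 response element, each CATG and 6 letters apart, shown with the letters between them in capitals (chr17:29090729-29090978, plus strand, RefSeq, GRCm38.p6).
Cdkn1a: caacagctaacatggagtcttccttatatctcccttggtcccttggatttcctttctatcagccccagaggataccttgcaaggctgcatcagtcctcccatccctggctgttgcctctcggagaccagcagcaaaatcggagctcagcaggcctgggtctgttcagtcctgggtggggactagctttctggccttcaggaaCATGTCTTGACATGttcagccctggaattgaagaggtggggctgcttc
The pair begins 48 bases upstream of that start, and 0.490% of the 32851 windows held these letters on either strand. The window of the second annotated start of Cdkn1a did not hold the pair. The letters were searched for after the window shown had been read, and a match is not evidence of binding.

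The order of classes was nearly the same in the 2 libraries for Cdkn1a, with a Spearman coefficient of 0.99 over the 13 classes, the highest of the 8 genes. Macrophage-like cells led at 220 CPM in the control and 175 in the floxed library. Within the nephron the level was low in committed nephron-like cells (36.5 and 29.8 CPM) and podocyte-like cells (23.9 and 14.5) and high in proximal tubule-like cells (137 and 148) and loop-like cells (125 and 122). Progenitor-like cells lay in between at 57.2 and 52.99 CPM. Compared with progenitor-like cells, committed nephron-like cells were 1.57-fold lower in the control (1.42 to 1.73) and 1.78-fold lower in the floxed library (1.52 to 2.09). The floxed direction turned when the cell cycle and pathway genes were allowed into the clustering (log2 ratio 0.28, against -0.83 without them). Proximal tubule-like cells were 2.39-fold (2.22 to 2.58) and 2.79-fold (2.51 to 3.11) higher than progenitor-like cells.

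Stroma-like cells were at the bottom for Cdkn1a, with 12.3 and 8.76 CPM, 4.67-fold and 6.05-fold below progenitor-like cells. After thinning, 2.25% and 1.43% of them had a UMI (unthinned 6.25% and 3.70%), close to the 1.34% and 1.33% of erythroid-like cells, whereas 22.1% and 25.2% of proximal tubule-like cells did (unthinned 62.2% and 56.2%, median depths 10957 and 8036 UMIs). Clusters of 1 class could differ for Cdkn1a: endothelium-like cluster 15 stood at 131 and 139 CPM against 37.6 and 26.1 in cluster 14, and macrophage-like cluster 25 at 288 and 216 against 41.5 and 41.3 in the shallow cluster 22. The highest value of all clusters was 397 and 313 CPM, in unnamed cluster 7 of 63 control and 73 floxed cells.

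Cdkn1b, on chromosome 6 (134920401 to 134925525), differed much less between classes. In the control library it ranged 3.88-fold, from 18.7 CPM in erythroid-like cells to 72.6 in neutrophil-like cells, and in neither library could a class be told apart from its neighbour in the order by counting error. Progenitor-like cells held 31.1 and 34.2 CPM, committed nephron-like cells 41.1 and 40.3, podocyte-like cells 43.4 and 44.1, and proximal tubule-like cells 30.7 and 36.3. The committed nephron-like class exceeded the progenitor-like class 1.32-fold in the control (1.19 to 1.47) and 1.18-fold in the floxed library (1.01 to 1.37).

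Cdkn2c, on chromosome 4 (109660876 to 109666756), stayed under 25 CPM in every class. The window upstream of its first annotated start is shown because of the gene's large ratio between dividing and other cells, given below (chr4:109666757-109667006, minus strand, RefSeq, GRCm38.p6). The window was searched for the E2F letters TTTNNCGC, the E box, the CHR letters TTTGAA and the p53 core pair, none of which was in it, so it carries no capitals.
Cdkn2c: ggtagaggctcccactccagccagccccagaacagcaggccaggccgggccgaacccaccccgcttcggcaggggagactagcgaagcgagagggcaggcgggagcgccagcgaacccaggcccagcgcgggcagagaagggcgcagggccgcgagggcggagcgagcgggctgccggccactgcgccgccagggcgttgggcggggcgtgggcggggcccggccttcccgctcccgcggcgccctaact
On either strand 4.28% of all windows held the E2F letters and 16.0% the CHR letters. The GC box letters GGGCGG, bound by Sp1, were found 3 times in the Cdkn2c window and in 32.7% of all windows. Macrophage-like cells held 12.4 and 11.4 CPM of Cdkn2c, stroma-like cells 8.76 and 8.01, endothelium-like cells 8.06 and 7.22, and progenitor-like cells 2.45 and 1.80. The highest cluster was stroma-like cluster 5, which had the highest cell cycle level of the stroma, at 30.3 and 34.6 CPM.

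Dividing and other cells were then compared within each class. Cells with at least 3 UMIs of S phase and G2/M genes after thinning to 2000 UMIs are called cycle-high, and cells with 0 or 1 serve as the other cells. Among progenitor-like cells the cycle-high share was 47.2% in the control and 44.1% in the floxed library. It was 94.4% and 91.9% of committed nephron-like cells, 44.98% and 35.7% of loop-like cells, 35.0% and 24.5% of ureteric-like cells and 40.01% and 33.0% of stroma-like cells. The call is a range and not a cell type: 498 control and 345 floxed progenitor-like cells had 2 such UMIs and fell in neither group. The committed nephron-like class had 24 and 23 other cells, too few for this comparison. Clusters of 1 class differed widely: stroma-like cluster 5 was 98.4% and 98.2% cycle-high and progenitor-like cluster 10 was 96.1% in both libraries, against 32.7% and 34.7% in progenitor-like cluster 18. Ratios within single clusters with at least 50 cells of each kind, chosen after the data were seen, are therefore given beside the class ratios. A gene is called higher or lower where the higher of the 2 levels is at least 25 CPM and the interval of the ratio lies wholly beyond 1.5-fold.

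Ccnd1 was the member most often higher in cycle-high cells. In progenitor-like cells it was the single member called, at 106 CPM against 60.5 in the control (1.74-fold, 1.57 to 1.94, where 3.42% of all genes were called higher) and 170 against 86.0 in the floxed library (1.98-fold, 1.75 to 2.25, 2.99% of genes). These levels lay below the 131 and 207 CPM of erythroid-like cells and are low levels compared with one another. Cluster 18 alone gave 1.85 (1.62 to 2.11) and 2.19 (1.89 to 2.53). In podocyte-like cells Ccnd1 was again the member called, 3.15-fold in the control (2.63% of genes called higher) and 3.90-fold in the floxed library (2.25%), and cluster 6 alone gave 3.10 and 3.90. In proximal tubule-like cells it was called in the control alone, at 2.21-fold (1.87% of genes), while the floxed ratio of 1.90 did not pass (1.30% of genes), and the difference between those ratios was not tested. Loop-like cells gave 2.40-fold in the control (4.12% of genes) and 2.30-fold in the floxed library (4.52%), and cluster 24 alone 2.29 (2.10 to 2.50) and 2.04 (1.92 to 2.18). Ureteric-like cells gave 2.36-fold (4.96% of genes) and 2.76-fold (5.27%), but their cycle-high cells came mostly from the Ccnd1-rich cluster 3 (51.0% and 40.7% cycle-high) and fewer from cluster 2 (16.7% and 9.74%). Within cluster 3 the ratios were smaller, 1.30 (1.15 to 1.47) and 1.47 (1.27 to 1.71), and within cluster 2 of the control 1.46 (1.16 to 1.82). Floxed erythroid-like cells gave 1.76 (1.41 to 2.22). In stroma-like cells the class ratios were 1.08 and 1.24 and no member was called (4.44% and 4.45% of genes), but stroma-like cluster 11 gave 1.65 (1.49 to 1.83) and 1.76 (1.56 to 1.99), and cluster 16 gave 1.11 and 1.13. Endothelium-like ratios were 1.52 and 1.13, with no member called (3.83% and 3.75% of genes).

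Finer bins of progenitor-like cells gave further Ccnd1 levels, all below those of erythroid-like cells. In the control library it was 60.5 CPM with 0 or 1 cycle UMIs, 118 in cells with S phase UMIs only, 105 in cells with both kinds and 81.8 in cells with G2/M UMIs only. In the floxed library the same bins held 86.0, 122, 175 and 94.97 CPM. The S phase only bin and the bin with both kinds were thus above the others in each library. Ccnd2 was called higher in cycle-high ureteric-like cells, 1.90-fold in the control and 2.51-fold in the floxed library. Cluster 3 alone gave 0.86 (0.76 to 0.98) and 1.15 (1.00 to 1.31), and control cluster 2 gave 2.09 (1.67 to 2.59). In progenitor-like cells the Ccnd2 ratios were 0.78 and 1.18, on different sides of 1. For Ccnd3 the interval lay below 1 in both libraries of loop-like cells (0.70 and 0.83) and ureteric-like cells (0.73 and 0.81), none past the rule. Cdk4 was called in floxed loop-like and ureteric-like cells (1.82-fold and 1.71-fold), and the control ratios of 1.51 and 1.52 did not pass. Loop-like cluster 24 alone gave 1.61 and 1.83 for Cdk4, and ureteric-like cluster 3 gave 1.22 and 1.35.

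Of the inhibitors, Cdkn2c had the largest ratios. Cycle-high stroma-like cells held 16.8 CPM of Cdkn2c against 1.98 in other cells of the control (8.50-fold, 5.83 to 12.8) and 16.5 against 2.99 in the floxed library (5.51-fold, 3.72 to 8.39). In endothelium-like cells the ratios were 8.73 (4.12 to 22.2) and 18.8 (4.89 to 160), and in progenitor-like cells 6.06 (2.44 to 19.4) and 3.94 (1.15 to 20.9), all on few counts: 55 and 5 UMIs in the control progenitors, and 18 and 3 in the floxed ones. The stroma-like ratios rest largely on cluster 5, which held 853 control and 492 floxed cycle-high cells and 7 and 4 other cells. Stroma-like cluster 17 alone gave 1.71 (0.60 to 5.20) and 2.27 (0.80 to 6.91). Endothelium-like cluster 14 alone gave 7.14 (3.19 to 19.9) and 14.4 (3.74 to 123), whereas progenitor-like cluster 18 had 2 and 3 Cdkn2c UMIs in the control and 1 and 2 in the floxed library, too few to show a difference. These levels were under 25 CPM, so the rule called Cdkn2c only in floxed macrophage-like cells, at 26.0 against 4.11 CPM (6.34-fold, 1.83 to 33.8, 3.03% of genes called higher). The control macrophage-like cells held 18.0 against 1.12 CPM, with no member called (2.66% of genes). In stroma-like cells Cdkn2c sat with the G2/M genes: control cells with S phase UMIs only held 2.48 CPM, those with both kinds 20.4 and those with G2/M UMIs only 10.0, and the floxed bins held 2.02, 21.5 and 13.2.

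Cdkn1a was lower in cycle-high cells of some classes without passing the rule, which called 3.10% of genes lower in control and 1.80% in floxed loop-like cells. In loop-like cells it stood at 99.9 CPM in cycle-high and 158 in other control cells (ratio 0.63, 0.56 to 0.71) and at 89.8 and 149 in floxed cells (0.60, 0.52 to 0.69). Loop-like cluster 24 alone gave 0.56 (0.49 to 0.64) and 0.60 (0.51 to 0.70). Progenitor-like ratios were 0.86 (0.77 to 0.96) and 0.68 (0.58 to 0.81), and cluster 18 alone gave 0.91 (0.79 to 1.05) and 0.70 (0.57 to 0.86). Endothelium-like class ratios were 0.69 and 0.66, but cycle-high cells came mostly from cluster 14 (59.1% and 46.9% cycle-high) and not from the Cdkn1a-rich cluster 15 (24.2% and 16.8%). Within cluster 14 the ratios were 1.06 (0.86 to 1.31) and 1.2498 (0.82 to 1.94). Podocyte-like ratios lay on different sides of 1, at 0.66 (0.47 to 0.94) in the control and 2.07 (1.08 to 4.02) in the floxed library. Stroma-like cells gave 1.02 and 0.77, and ureteric-like cells 0.85 and 0.99.

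Cdkn1b was somewhat higher in cycle-high cells, with an interval above 1 in both libraries of ureteric-like cells, at 1.247 (1.04 to 1.49) and 1.33 (1.10 to 1.62). In the control alone the interval lay above 1 in progenitor-like cells (1.41, 1.19 to 1.66), proximal tubule-like cells (1.60, 1.22 to 2.10), stroma-like cells (1.20, 1.08 to 1.33) and endothelium-like cells (1.24, 1.03 to 1.49). The floxed ratios of those classes were 1.03, 1.03, 0.98 and 1.07, and the difference between libraries was not tested. Progenitor-like cluster 18 alone gave 0.98 and 0.87 for Cdkn1b.

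**Figure D3:**
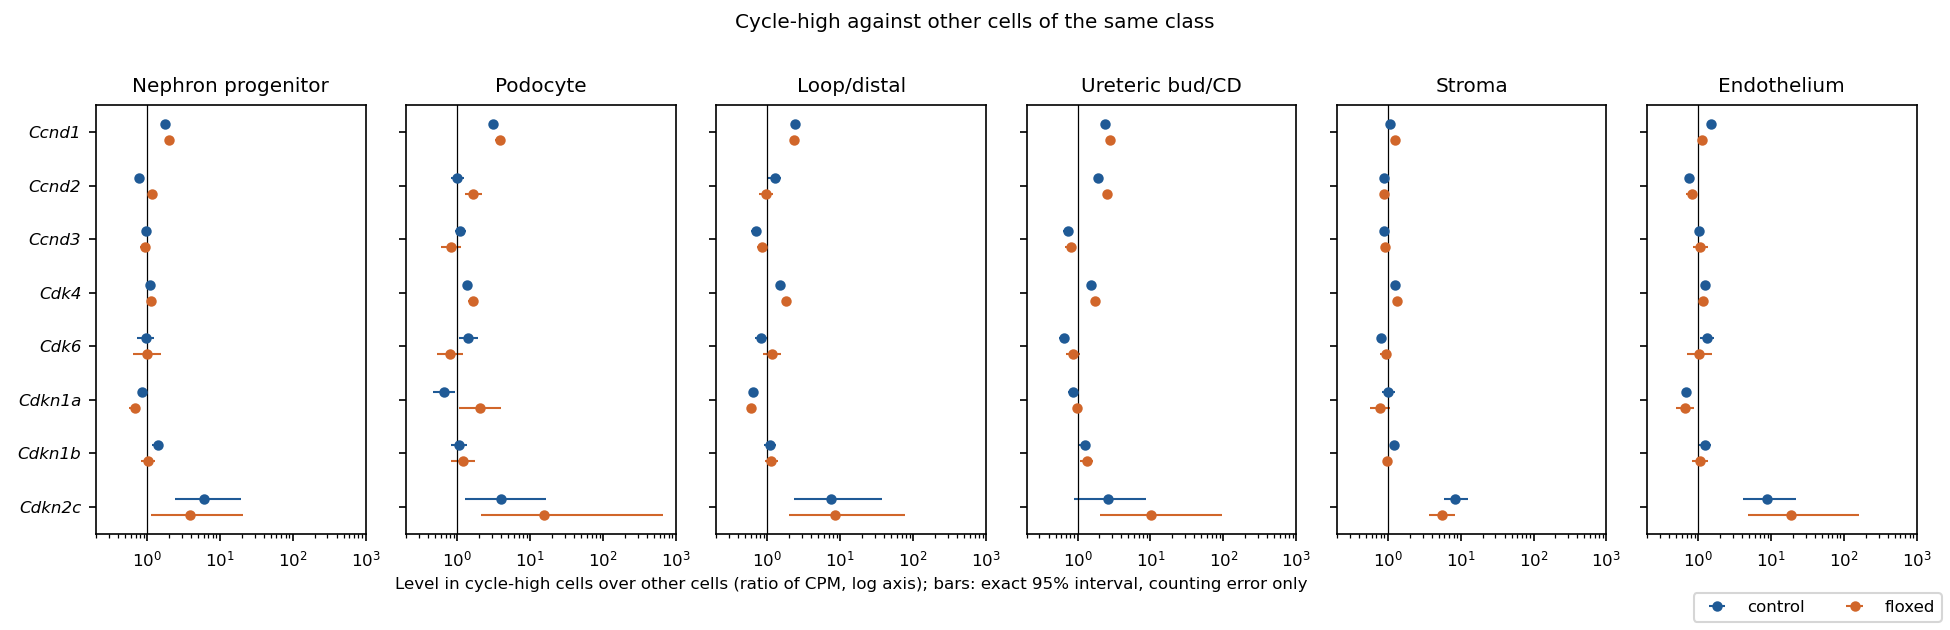
Ratio of the level in cycle-high cells to that in other cells of the same class (log axis) for the 8 genes, 1 point per library with exact 95% intervals for counting error. Ccnd1 lies above 1 in each class shown, Cdkn2c has the largest ratios with wide intervals, such as 8.50 and 5.51 in stroma-like cells, and Cdkn1a lies below 1 in loop-like cells.

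Between the genotypes none of the 8 genes passed the size rule in any of the 13 classes. In progenitor-like cells 3.40% of the 5290 genes with at least 25 CPM passed in either direction, in committed nephron-like cells 1.90% and in stroma-like cells 3.43%, and podocyte-like 2.61%, proximal tubule-like 4.70%, loop-like 3.60%, ureteric-like 4.46%, mural-like 1.60%, endothelium-like 3.10%, macrophage-like 5.21%, neutrophil-like 2.10%, erythroid-like 2.11% and lymphoid-like 2.82%. With 8 members a count of 0 is near that background. The ratios themselves are given as descriptions of 2 libraries. Over the 6 members that reached 25 CPM in progenitor-like cells the median log2 ratio, floxed over control, was 0.10, beside 0.05 for all genes. It was -0.03 beside 0.01 in committed nephron-like cells and 0.05 beside 0.00 in stroma-like cells.

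Ccnd1 was higher in the floxed library in most classes, within the nephron lineage and outside it. The interval lay above 1 in 9 of 13 classes and below 1 in 1, where 22.6% of all pairs of a gene at 25 CPM or more and a class lay above 1 and 22.9% below, and the median ratio was 1.40. In progenitor-like cells 89.7 and 129 CPM gave a ratio of 1.44 (1.35 to 1.53), in loop-like cells 424 and 600 CPM gave 1.41 (1.36 to 1.47), in endothelium-like cells 1.40 (1.32 to 1.47) and in macrophage-like cells 1.61 (1.40 to 1.86). Erythroid-like cells, which do not arise from Six2-positive progenitors, gave 1.58 (1.28 to 1.97). The class with the highest level hardly differed: committed nephron-like cells gave 1.03 (1.00 to 1.05). Ureteric-like cells were the exception, at 142 and 118 CPM, 1.21-fold lower (1.13 to 1.30). Summed markers of the committed nephron, 7 of whose 10 genes were at their highest in that class, rose with Ccnd1 in some classes: 135 and 180 CPM in progenitor-like cells (log2 ratio 0.42), 142 and 191 in erythroid-like cells (0.43) and 80.5 and 94.8 in stroma-like cells (0.24). The sum rose less than Ccnd1 in macrophage-like cells (113 and 123 CPM, log2 ratio 0.12) and loop-like cells (350 and 392 CPM, 0.16). Directions differed in mural-like cells, where the sum was 164 and 118 CPM and Ccnd1 102 and 177. They differed too in ureteric-like cells, where the sum was 264 and 278 CPM. In endothelium-like cells the sum was 105 and 99.6 CPM, where Ccnd1 was still 1.40-fold higher. Markers of other lineages differed between the libraries more than these: erythroid markers summed to 372 and 1127 CPM in progenitor-like and 438 and 3182 in podocyte-like cells, proximal tubule markers to 109 and 53.3 in progenitor-like cells, and neutrophil markers to 471 and 3352 in macrophage-like cells. The part of free RNA in these ratios was not tested.

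For Ccnd2 the interval lay above 1 in 4 of 13 classes and below 1 in 4. Of all pairs of a gene at 25 CPM or more and a class, 22.6% lay above 1 and 22.9% below. Progenitor-like cells held 93.5 and 136 CPM (ratio 1.45, 1.37 to 1.55), committed nephron-like cells 75.6 and 110 (1.46, 1.33 to 1.60) and podocyte-like cells 63.0 and 89.3 (1.42, 1.22 to 1.64). Podocyte values rest partly on cluster 20, which held 313 control and 13 floxed cells; cluster 6 alone gave 1.36 (1.17 to 1.57). Stroma-like cells, with the highest level, gave 0.94 (0.91 to 0.97), and proximal tubule-like cells at 33.8 and 24.9 CPM were 1.36-fold lower in the floxed library (1.10 to 1.69). The log2 ratio of Ccnd2 exceeded that of stroma-like cells by 0.63 in progenitor-like cells (0.53 to 0.73) and by 0.63 in committed nephron-like cells (0.50 to 0.77). Erythroid-like cells, outside the lineage, were the fourth class above 1, at 1.40 (1.07 to 1.85).

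Cdkn1b was higher in the floxed library in 7 of 13 classes by interval and lower in none, beside 22.6% and 22.9% of all pairs of a gene and a class. The largest class showed it most clearly: stroma-like cells held 44.9 CPM in the control and 71.5 in the floxed library (ratio 1.59, 1.49 to 1.70), just short of the rule. All 6 stroma-like clusters were higher, from 1.35-fold in cluster 5 (1.16 to 1.57) to 1.92-fold in cluster 4 (1.64 to 2.24). With each cell thinned to 2000 UMIs, 8.15% of control and 13.5% of floxed stroma-like cells had a Cdkn1b UMI (unthinned 23.3% and 28.2%), and 2.68% and 4.80% of erythroid-like cells. Macrophage-like cells gave a ratio of 1.57 (1.19 to 2.07) and ureteric-like cells 1.28 (1.13 to 1.44), whereas progenitor-like cells gave 1.10 (0.98 to 1.24) and committed nephron-like cells 0.98 (0.85 to 1.13). The log2 ratio in stroma exceeded the progenitor-like one, the difference progenitor minus stroma being -0.53 (-0.73 to -0.34), and the committed nephron-like one, at -0.70 (-0.92 to -0.47). Stress genes stood at 3809 and 1852 CPM in stroma-like cells and at 3731 and 1883 in progenitor-like cells, where Cdkn1b differed less. In macrophage-like cells they stood at 7010 and 6644 CPM. Their part in the Cdkn1b ratios was not tested.

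Cdk6 and Cdk4 had more classes lower than higher in the floxed library. Over all pairs of a gene and a class, 22.9% of intervals lay below 1 and 22.6% above. The interval of Cdk6 lay below 1 in 5 of the 10 classes where it reached 25 CPM and above 1 in none, with 40.7 and 26.4 CPM in loop-like cells (1.54-fold lower, 1.32 to 1.81), 42.5 and 29.8 in committed nephron-like cells (1.43-fold lower, 1.22 to 1.68) and 33.5 and 25.4 in stroma-like cells (1.31-fold lower, 1.19 to 1.45). The interval of Cdk4 lay below 1 in 5 of 13 classes and above 1 in 1. It was 1.31-fold lower in mural-like cells at 235 and 179 CPM (1.03 to 1.68), 1.69-fold lower in lymphoid-like cells at 205 and 122 CPM (1.12 to 2.57) and 1.20-fold lower in macrophage-like cells at 164 and 137 CPM (1.03 to 1.40). Progenitor-like cells gave a Cdk4 ratio of 1.04, and committed nephron-like and stroma-like cells 1.01. Ccnd3 gave 0.99 in progenitor-like cells (0.91 to 1.07). Cdkn1a gave 0.93 in progenitor-like cells (0.84 to 1.02), was 1.40-fold lower in stroma-like cells at 12.3 and 8.76 CPM (1.19 to 1.65), and was higher only in ureteric-like cells by interval, at 76.0 and 102 CPM (1.35, 1.24 to 1.47).

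**Figure D4:**
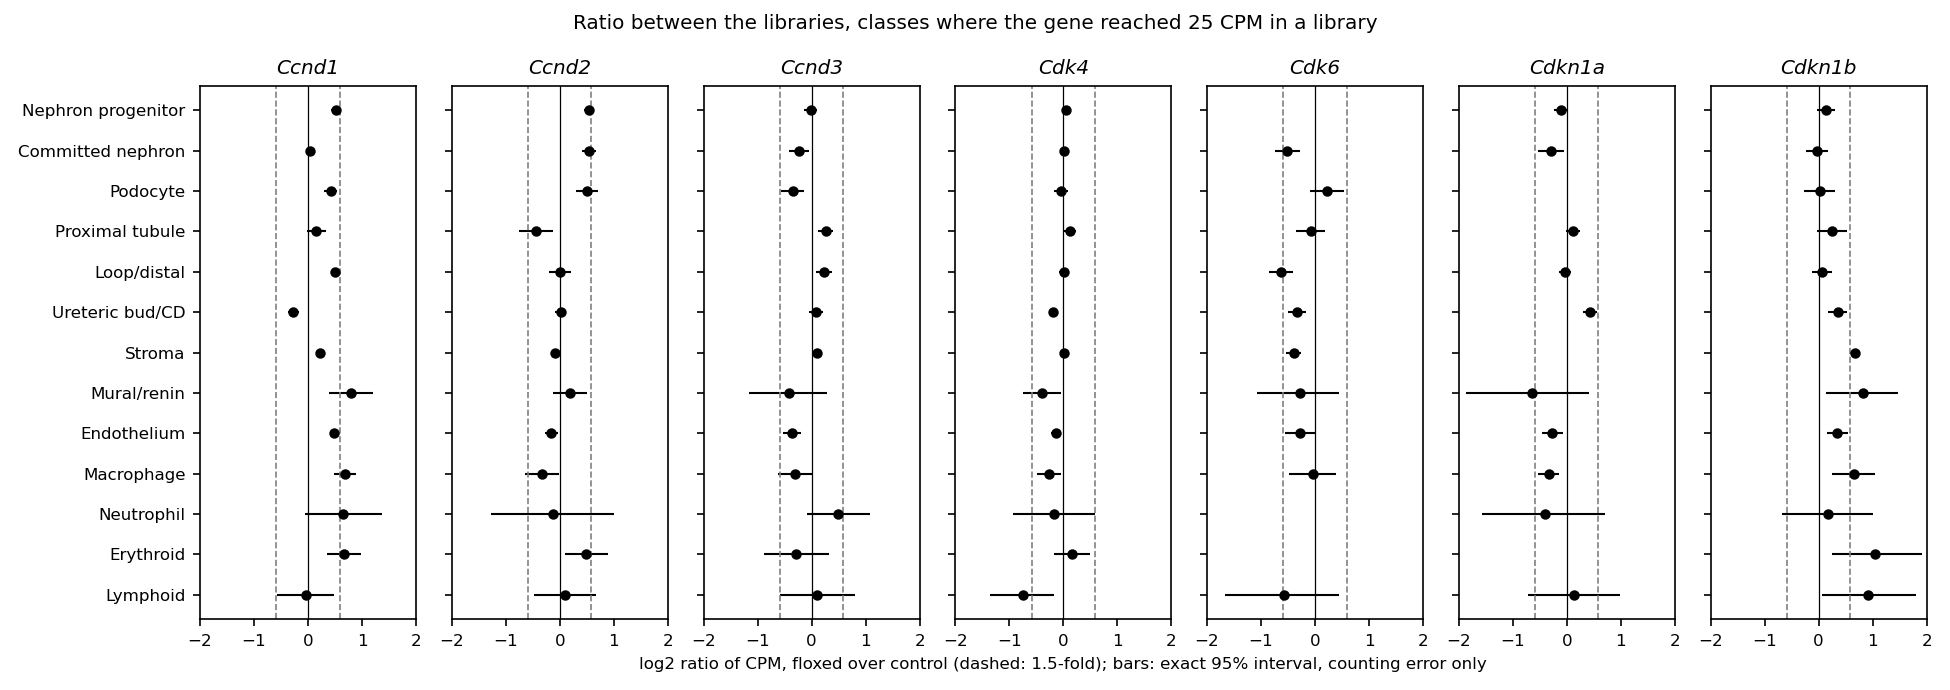
Log2 ratio of the level, floxed over control, for each gene in the classes where it reached 25 CPM in a library, with exact 95% intervals for counting error and dashed lines at 1.5-fold. No interval lies wholly beyond the dashed lines. Ccnd1 and Cdkn1b lie mostly to the right of 0, and Cdk6 mostly to the left.

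Because the cycle-high share was lower in the floxed library in each class but the erythroid-like one (29.5% and 31.5%), the genotypes were also compared within cycle-high and within other cells. Ccnd2 then passed the rule in cycle-high progenitor-like cells, at 84.4 CPM in the control and 145 in the floxed library (1.71-fold, 1.57 to 1.87, 1.82% of genes called higher). Clusters entered unequally: cluster 10 gave 546 of 1276 control and 199 of 747 floxed cycle-high cells, and cluster 12 gave 94 and 93. Within cluster 18 Ccnd2 stood at 86.2 and 160 CPM (1.86-fold, 1.63 to 2.11), within cluster 10 at 58.1 and 87.5 (1.505-fold, 1.248 to 1.81) and within cluster 12 at 191 and 203 (1.06-fold, 0.89 to 1.26). In the other progenitor-like cells it gave 1.14 (1.01 to 1.27). Ccnd1 passed in both strata of the loop-like class, at 546 and 909 CPM in cycle-high cells (1.66-fold, 1.58 to 1.75, 1.27% of genes) and 228 and 395 CPM in other cells (1.73-fold, 1.60 to 1.88, 1.30% of genes). Cluster 24 alone gave 1.65 and 1.84, and the other cells of cluster 1 gave 0.90 (0.75 to 1.09). Each stratum thus differed more than the class as a whole, in which the cycle-high share was 44.98% in the control and 35.7% in the floxed library. Ccnd1 also passed in the other endothelium-like cells, at 187 and 334 CPM (1.78-fold, 1.62 to 1.96, 1.27% of genes; 1.58, 1.42 to 1.77, in cluster 14 alone and 2.49, 2.01 to 3.10, in cluster 15), and in the other erythroid-like cells, at 62.4 and 160 CPM (2.57-fold, 1.68 to 4.07, 2.62% of genes, 78 and 185 cells). Cdkn1b passed in the other stroma-like cells, at 41.2 and 71.8 CPM (1.74-fold, 1.56 to 1.94, 1.29% of genes), beside 1.42 (1.28 to 1.58) in cycle-high ones. Within single stroma-like clusters the ratio of Cdkn1b in other cells ran from 1.505 in cluster 13 to 1.95 in cluster 4. Cdkn1a was called lower in the other podocyte-like cells, at 30.01 and 11.2 CPM (2.67-fold lower, 1.62 to 4.64, 1.62% of genes called lower), on 94 and 19 UMIs. Cluster 20 gave 178 of the 501 control and 8 of the 303 floxed other cells, and cluster 6 alone was 3.12-fold lower, at 35.6 and 11.4 CPM (1.88 to 5.43). Whether the strata of a class differ from each other was not tested.

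The other genes of the pathway came from lists of G1 cyclins and kinases (8 genes), Cdk inhibitors (4), pocket proteins and E2F factors (17), factors in the turnover or induction of D cyclins and inhibitors (6) and p53 targets (17). Of the 18 genes of these lists at 25 CPM or more in progenitor-like cells 1 passed, lower in the floxed library, as did 1.32% of all genes, and of the 16 in stroma-like cells 1 passed, lower, as did 1.92% of all genes. With so few genes a count of 1 is near that background, and in committed nephron-like cells none did. It was the p53 target Btg2, an antiproliferative gene that is also induced early by stress, which progenitor-like cells held at 355 and 153 CPM (2.32-fold lower, 2.20 to 2.44) and stroma-like cells at 265 and 89.5. Dissociation stress genes were lower in the floxed library in the same classes, and their part in the Btg2 ratio was not tested. In committed nephron-like cells, where they stood at 2128 and 1822 CPM, Btg2 held 151 and 121 CPM. List medians of the log2 ratio in progenitor-like cells were 0.13, 0.22, 0.30, 0.11 and 0.10 in the order given, beside 0.05 for all genes. The Rb1 gene, which encodes the retinoblastoma protein, held 9.28 and 10.1 CPM in progenitor-like cells, and the E cyclin Ccne1 held 13.4 and 12.5 there and 35.3 and 28.2 in committed nephron-like cells. Ccne2 held 6.22 and 7.86 CPM in progenitor-like cells.

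Cdkn1c, the Cip/Kip inhibitor p57 that podocytes are known to express, was high in podocyte-like cells (2409 and 1287 CPM) and stroma-like cells (1086 and 1195). The stroma-like value rests on cluster 11, at 4299 and 4492 CPM, and was 528 and 544 without it. In the nephron lineage its level went from 190 and 220 CPM in progenitor-like cells to 211 and 311 in committed nephron-like cells, a ratio between libraries of 1.48 there (1.40 to 1.56). The podocyte-like difference passed the rule (1.87-fold lower, 1.37% of genes called lower), but the class mixed its clusters unequally: cluster 20, almost all control, stood at 7215 and 4562 CPM, and cluster 6 alone was 1.27-fold lower (1.22 to 1.31). Proximal tubule-like cells held 161 and 88.2 CPM (1.82-fold lower, 1.64 to 2.03).

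Likeness to other genes was measured as Pearson's correlation of log2(CPM + 1) across the 13 classes, with 8373 genes compared. It describes classes that share a library and differ in depth, and the genes were picked on the control values. For Ccnd1 the most alike genes were Epha4 (0.86 in the control, 0.73 in the floxed library), Mad2l1 (0.84 and 0.69) and Gmnn (0.80 and 0.79). For Cdk4 the most alike included Strap (0.97 and 0.86) and Smc3 (0.96 and 0.91). For Cdkn1a the first was Nfkbib (0.88 and 0.87), for Ccnd2 Epb41l2 (0.90 and 0.85) and for Ccnd3 Sirt7 (0.93 and 0.78). For Cdk6 the first was Nln (0.87 and -0.14) and for Cdkn1b Fgfr1op2 (0.93 and 0.40), followed by Stk38 (0.93 and 0.70). The floxed value was also much lower for Lrch2 with Ccnd2 (0.90 and 0.34) and Zzef1 with Ccnd3 (0.90 and 0.50).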

How the data were processed

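The authors deposited raw UMI counts per gene and barcode, 1 matrix for each library. Cell Ranger 6.0.2 and mm10 are named per the submitters' processing notes, while version 6.0.1 stands in the matrices per the file headers. The sources used here do not give the annotation release. Barcodes (25736 control, 22543 floxed) exceeded the 10000 cells loaded per library, per the labels' protocols. Total counts were 197745868 and 115427704 UMIs. The 2 bisulfite samples were not analysed here.

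Cells with at least 1000 UMIs, 500 genes and under 15% mitochondrial UMIs were kept. The 8% of barcodes with the highest scrublet score were removed from each library, a fixed share in place of the caller's automatic threshold; doublets that the score misses remain. Clustering took both libraries at once, with no batch correction, on 2000 variable genes, leaving out the 8 genes, the listed pathway genes and the listed S phase and G2/M genes, with 30 principal components, 15 neighbours and Leiden resolution 1 (scanpy 1.11.5, igraph 0.11.9, scikit-learn 1.9.0). Clusters were named where the mean log2 ratio of a marker list was at least 0.5, and 0.5 above the next. Of the 29 clusters 4 stayed unnamed: cluster 0 and cluster 7 for a low score, cluster 8 with mixed markers and cluster 21 for its depth. UMIs were summed per class and library and given as CPM of the class total, with exact Poisson intervals. Ratios of sums have exact conditional binomial 95% intervals and shares of cells Clopper-Pearson ones. UMI counts limit only the counting error, and no test across animals was possible, since each genotype had 1 library. The size rule asks for 25 CPM in the higher library and an interval wholly beyond 1.5-fold. It was tested on simulated Poisson counts, which hold counting error only and no variation between animals or libraries.

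All 8 members are reported, then pathway genes past the size rule in progenitor-like, committed nephron-like or stroma-like cells, with Cdkn1c, Rb1 and the E cyclins whatever their values, and up to 3 genes per member with the most alike levels across classes. Members, markers and lists (cell types, G1 cyclins and kinases, Cdk inhibitors, pocket proteins and E2F, turnover, p53 targets, S, G2/M, dissociation stress) were chosen with earlier results of these data known. Clusters named in the text outside these rules were chosen after their values were seen. Alternatives covered the cell filters, doublets, clustering, thinning, the cycle call, scaling (edgeR 4.0.16 TMM factors, median of ratios) and the thresholds. Promoter windows, 250 bases upstream of the start, are from RefSeq (GRCm38.p6) and matched 6 of the 8 genes by symbol; coordinates are from RefSeq's GRCm38 table. Calculations ran in R 4.3.3 and Python 3.11.15 with pandas 2.3.3, scipy 1.17.1, numpy 2.4.6 and matplotlib 3.10.9.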

Additional observations from a re-analysis of the deposited data

Results flagged for a closer look

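Some members differed in opposite directions between classes under the same contrast, floxed over control. Each class has a single ratio, and the pairs of classes were picked for their opposite directions. With 1 library per genotype these differences were not tested. Ccnd1 had a log2 ratio of 0.69 in macrophage-like cells and -0.27 in ureteric-like cells. Ccnd2 stood at 0.54 in progenitor-like cells and -0.44 in proximal tubule-like cells. For Ccnd3 the log2 ratio was 0.26 in proximal tubule-like and -0.36 in endothelium-like cells. Cdk4 gave 0.12 in proximal tubule-like cells and -0.75 in lymphoid-like cells, a class of 55 control and 75 floxed cells. Cdkn1a gave 0.43 in ureteric-like cells and -0.34 in macrophage-like cells.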

How the results depend on the processing

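No paired analysis was possible because each genotype had 1 library. The counts of members past the size rule stayed at 0 in 82 pairs of a class and an alternative and changed in 11. With the fold threshold lowered from 0.58 to 0.32 on the log2 scale, the count was 2 in progenitor-like cells (Ccnd1 and Ccnd2, higher, as were 8.47% of genes), 2 in loop-like cells (Ccnd1 higher, as were 5.83% of genes, and Cdk6 lower, as were 8.36%), and 1 each in committed nephron-like (Ccnd2, 4.88% of genes higher), endothelium-like (Ccnd1, 4.62%) and stroma-like cells (Cdkn1b, 7.33%). With cells thinned to 2000 UMIs it was 1 in committed nephron-like (Ccnd2) and 1 in stroma-like cells (Cdkn1b). Cdkn1b also gave 1 in stroma-like cells without doublet removal, with cycling cells left out and without the 2 clusters 5 and 12 (chosen after seeing the data), and 1 in ureteric-like cells with cycling cells left out. With cycling cells left out committed nephron-like cells, of which 1 and 4 were left, gave no value. The floxed log2 ratio of Cdkn1a, committed nephron-like over progenitor-like, reversed to 0.28 when member, pathway and cycle genes were allowed in clustering; the cause was not tested. Of the ratios and levels of single genes, 572 stayed within their counting error, 181 moved and 1 reversed. A low level limits Cdkn2c most, with under 25 CPM in every class.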

Other observations

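Cdkn2d, which encodes the Ink4 inhibitor p19, was lower in the floxed library in several classes. Endothelium-like cells held 47.0 CPM in the control and 25.8 in the floxed library (1.82-fold lower) and macrophage-like cells held 86.3 and 31.1 (2.78-fold lower). Both were past the size rule, which called 1.68% and 3.16% of genes lower in these classes. In neutrophil-like cells, where Cdkn2d was highest, it stood at 232 and 209 CPM. Committed nephron-like cells held 26.6 and 18.7 CPM (1.43-fold lower, 1.17 to 1.75), loop-like cells 30.8 and 25.8 and progenitor-like cells 19.3 and 15.2, none of them past the rule.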
